A study of Mus musculus with 6 samples.

Results

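A set of transcription factor genes was followed across 6 RNA-seq libraries of MLE12, a line of mouse lung epithelial cells that was immortalized. They are Gata5, Gata6, Nkx2-1, Foxa1, Foxa2, Sox9, Sox2, Foxp1, Foxp2 and Id2, that is 10 of the 46078 gene identifiers in the deposited count table. Gata5 was chosen by its measured level, which was higher in every knockout library, so its differences from the parental line are given as a description. The other 9 were chosen for their known roles in lung epithelium. The groups were the wild-type parental line as an intact monolayer, the same line 24 hours after a scratch with a pipet tip, and the Lingo1 KO, Lingo2 KO, Lingo3 KO and TROY KO lines, each 24 hours after the scratch. Each group had 1 library, so no replicate error could be measured and no p-value is given. All groups share the immortalized background. The sources used here do not say how the knockouts were made or whether each line is 1 clone, so a difference between a knockout and the parental line cannot be told apart from a difference between cell clones.

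Nkx2-1 is the homeodomain factor that marks the lung field and, together with the pioneer factors Foxa1 and Foxa2 and the zinc finger factor Gata6, drives surfactant genes in alveolar type II cells. Sox9 and Id2 mark the growing distal tips of the embryonic lung, and Sox2 marks the proximal airway. Foxp1 and Foxp2 are forkhead repressors of the lung epithelium, and Gata5 is a relative of Gata4 and Gata6 best known from heart, gut and endoderm.

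The libraries held between 28109825 and 30776294 reads in genes. Levels are given in CPM, counts per 1000000 reads after TMM scaling, and folds are ratios of these scaled counts, with 95% exact intervals that cover counting error only. The size rule asks for a fold of 2 or more whose interval bound nearest to 1 is beyond 1.5. It was applied to 12078 genes, those that averaged 1 CPM or more, and these are called tested. The share of reads assigned to no gene was 7.80% and 8.02% in the parental libraries and between 4.98% and 6.41% in the knockouts; its part in the differences below was not tested. The targeted genes gave little check of the labels. Lingo1 counts were 2.33-fold higher (interval 2.13 to 2.55) in the Lingo1 KO than in the scratched parental library, and 2.13-fold, 2.10-fold and 1.42-fold in the Lingo2, Lingo3 and TROY knockouts. Lingo2 had 0 counts in every library, and Lingo3 and Tnfrsf19, the gene of TROY, had 1 and 13 counts over all 6.

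MLE12 cells carried the transcripts of the lung lineage in all libraries. Of the 10 factors, 9 had counts and passed the filter, and Gata5 passed it only through the knockout libraries. By the RPKM of the authors' deposited table, which divides by gene length, the median over the 6 libraries was 62.2 for Nkx2-1, 52.5 for Gata6, 43.2 for Foxa2, 28.6 for Foxp1 and 16.9 for Foxa1. It was 9.29 for Sox9, 5.84 for Foxp2, 3.38 for Id2 and 1.61 for Gata5. The distal markers of the line were uneven: Abca3, a lipid transporter of surfactant, lay between 126.5 and 164.3 CPM, while Sftpd was at 0 and Lamp3 and Slc34a2 had at most 3 counts in any library.

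The promoter of Gata5 is shown because Gata5 had the widest range of the 10 factors. Gata5 lies on the minus strand of chromosome 2, from 180334699 back to 180325133 on build GRCm38. The 230 bases just before the annotated gene, chr2:180334700-180334929 on the minus strand, are given 5′ to 3′ from RefSeq (GRCm38.p6), with each CpG in capitals.
Gata5 promoter: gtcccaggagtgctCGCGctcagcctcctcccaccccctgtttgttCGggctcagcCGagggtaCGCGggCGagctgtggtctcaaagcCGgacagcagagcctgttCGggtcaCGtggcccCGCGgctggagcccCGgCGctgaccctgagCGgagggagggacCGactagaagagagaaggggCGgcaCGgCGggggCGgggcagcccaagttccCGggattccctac
This stretch holds 21 CpG. In the 300-base window that runs from 250 bases before to 50 after the RefSeq start, GC content was 69.7%, against a median of 52.7% over 32851 promoters, and the observed over expected CpG ratio was 0.714, against 0.384. Of those promoters, 89.9% had a lower GC content and 72% a lower CpG ratio. Both strands of the window were searched for the letters of GATA sites (AGATAA or else TGATAA or else AGATAG or else TGATAG), forkhead sites (TGTTTAC or else TGTTTGC), NKX2-1 sites (CACTTGA or else CTCAAG) and SOX sites (ACAAAG or else ACAATG). None of these was in the Gata5 window, while 29.8%, 8.48%, 17.6% and 28.6% of all promoters held a match of the respective family. The absence says only that these letters are not in this window. Of the 10 factors, 7 had a promoter in the table.

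Gata5 was near silent in the parental line and was read at a low level in each knockout. Its counts were 7 in the unscratched and 8 in the scratched parental library, and 156, 196, 359 and 152 in the Lingo1, Lingo2, Lingo3 and TROY knockouts. These correspond to 0.244 and 0.263 CPM in the parental libraries and to 5.63, 6.93, 11.8 and 5.05 CPM in the knockouts. All 4 knockouts lay above both parental libraries, with no overlap of the counting intervals. Gata5 was chosen for this rise, so nothing is read from the separation.

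Against the scratched parental library the Gata5 folds were 21.4 (10.6 to 50.5) in the Lingo1 KO, 26.4 (13.1 to 61.9) in the Lingo2 KO, 44.8 (22.5 to 104.5) in the Lingo3 KO and 19.2 (9.51 to 45.3) in the TROY KO. The intervals are wide because the shared control held 8 counts. The 4 comparisons share that control and are therefore not independent. Against the unscratched parental library the ratios were 23.1, 28.4, 48.2 and 20.7 in the same order. The scratch itself gave a ratio of 1.08 (0.341 to 3.49) in the parental line, so a change within these bounds was not detectable at this depth.

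The knockouts also differed among themselves in Gata5. The Lingo3 KO library was 1.70-fold (1.42 to 2.03) above the Lingo2 KO, 2.09-fold (1.73 to 2.54) above the Lingo1 KO and 2.33-fold (1.92 to 2.84) above the TROY KO. The Lingo2 KO over the Lingo1 KO was 1.23 (0.993 to 1.53) and the Lingo1 KO over the TROY KO was 1.11 (0.886 to 1.40), and both intervals hold 1. The Lingo2 KO was 1.37-fold (1.11 to 1.71) above the TROY KO, an interval that does not hold 1. The Lingo3 KO thus stood highest, and below it the ends of the order differed beyond counting error while neighbours did not.

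**Figure D1:**
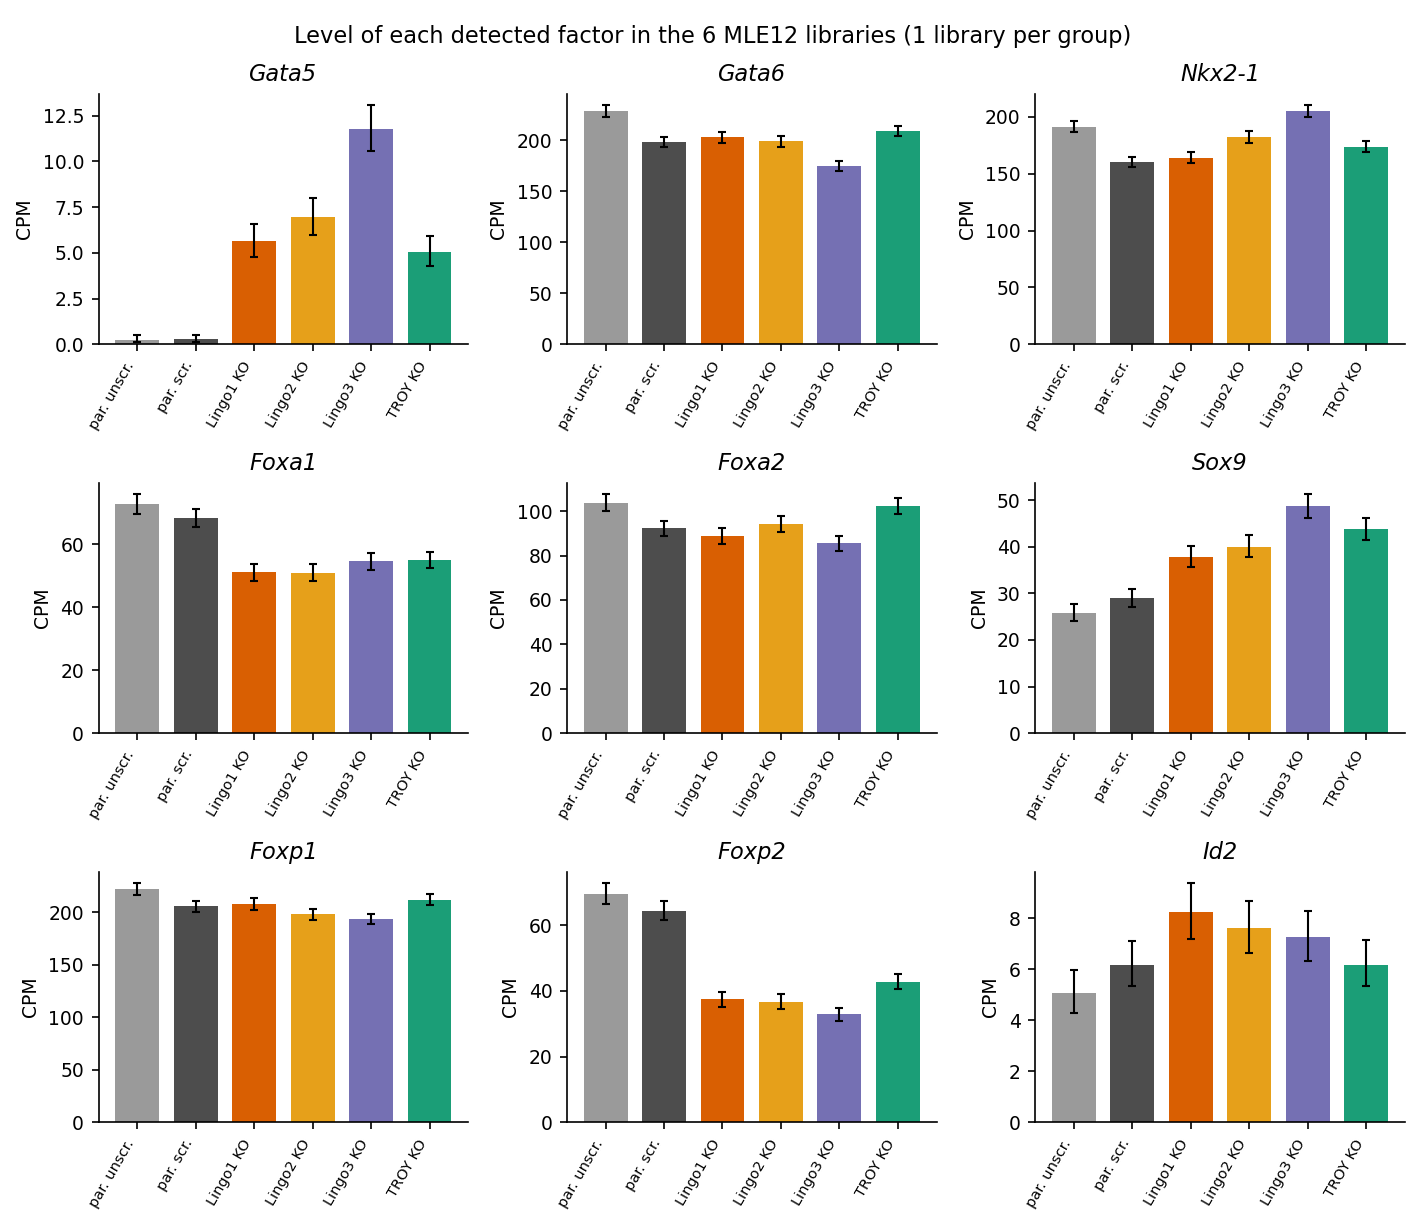
Level of the 9 detected factors in CPM (vertical axes, linear from 0, a separate scale for each gene) in the parental unscratched (par. unscr.), parental scratched (par. scr.) and 4 knockout libraries; bars are single libraries and error bars 95% Poisson intervals. Gata5 rises from under 0.3 to between 5.05 and 11.8 CPM, Foxp2 is lower and Sox9 higher in the 4 knockouts than in both parental libraries, and Gata6 and Foxp1 stay within narrow ranges.

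Even in the knockouts, Gata5 stayed far below Gata6 per length. In the authors' deposited table its RPKM was 0.07, 0.08, 1.7, 2.08, 3.55 and 1.51 in the unscratched parental, scratched parental, Lingo1, Lingo2, Lingo3 and TROY libraries. Set against the RPKM of Gata6 in the same library, this was 0.118% and 0.154% in the parental line, 3.21% in the Lingo1 KO, 4.03% in the Lingo2 KO, 7.8% in the Lingo3 KO and 2.79% in the TROY KO. An antisense gene, Gata5os, overlaps Gata5 and shares 258 of its 3277 exon bases. It had 0 counts in both parental libraries and 3, 4, 6 and 5 in the Lingo1, Lingo2, Lingo3 and TROY knockouts. Whether the counting used strand is not given, so reads in the shared bases cannot be assigned to one of the 2 genes.

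Gata6, the GATA factor best known from lung epithelium, stayed close to its parental level. It stood at 228 CPM in the unscratched and 198 in the scratched parental library, and at 202, 199, 174 and 209 CPM in the Lingo1, Lingo2, Lingo3 and TROY knockouts. The fold against the scratched library was 0.880 (0.848 to 0.913) in the Lingo3 KO, the lowest library, and 1.05 (1.02 to 1.09) in the TROY KO. The scratched parental library was itself at 0.869 (0.839 to 0.900) of the unscratched one. This gap of 1.151-fold (1.111 to 1.192) is of the size of that between the scratched library and the Lingo3 KO, 1.137-fold (1.095 to 1.179). The unscratched parental library was 1.308-fold (1.262 to 1.357) above the Lingo3 KO. Gata4, the third member of this subfamily, was read at between 47.9 and 59.0 CPM in all 6 libraries.

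A list of 10 related genes held other GATA factors, the FOG cofactors that bind them, and proteins with GATA-type zinc fingers (Gatad1, Gatad2a, Gatad2b and Trps1), and 8 were tested. None passed the size rule in the Lingo1, Lingo2 and TROY comparisons or after the scratch, and 1 was higher in the Lingo3 KO. That gene was Gata2, a factor of blood and endothelium. It stood at 2.27 CPM in the scratched parental and 4.89 CPM in the Lingo3 KO library (2.16-fold, 1.61 to 2.91). Of all tested genes, 4.63% were higher in the Lingo3 comparison. The list's median log2 fold lay between 0.00595 and 0.0904 in the 4 knockout comparisons, beside medians of 0.00706 to 0.0217 over all tested genes.

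Nkx2-1, on chromosome 12, was read at 191 CPM in the unscratched and 160 in the scratched parental library, and at 164, 182, 205 and 174 CPM in the Lingo1, Lingo2, Lingo3 and TROY knockouts. The Lingo3 KO was the highest library and the scratched parental the lowest. The Lingo3 fold was 1.28 (1.23 to 1.33) against the scratched library but 1.07 (1.03 to 1.11) against the unscratched one. The knockout levels of Nkx2-1 thus overlapped the range spanned by the 2 parental libraries.

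Foxa2, which opens chromatin at endoderm genes, showed a similarly narrow range. It was at 104 CPM in the unscratched and 92.2 in the scratched parental library, and at 88.8, 93.97, 85.5 and 102 CPM in the Lingo1, Lingo2, Lingo3 and TROY knockouts. Its paralogue Foxa1 was at 72.6 and 68.3 CPM in the parental libraries and at 51.0, 50.9, 54.5 and 55.0 CPM in the knockouts. All 4 knockouts lay below both parental libraries for Foxa1, at 0.747 (0.698 to 0.800), 0.745 (0.696 to 0.797), 0.798 (0.748 to 0.852) and 0.805 (0.754 to 0.859) of the scratched one, which did not reach the size rule. Against the unscratched library Foxa1 was 1.42-fold, 1.43-fold, 1.33-fold and 1.32-fold lower. The Foxa1 levels of the 4 knockouts spanned 1.08-fold. The share of all tested genes with all 4 knockouts below both parental libraries was not counted. Per length, Foxa1 was 46.7% and 49.4% of Foxa2 in the parental libraries and 38.3%, 36.1%, 42.5% and 35.8% in the Lingo1, Lingo2, Lingo3 and TROY knockouts, by the authors' deposited RPKM.

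Foxp2 had the lowest fold of the 9 tested factors in each of the 4 knockout comparisons. Its level was 69.6 CPM in the unscratched and 64.3 in the scratched parental library, and 37.4, 36.7, 32.8 and 42.8 CPM in the Lingo1, Lingo2, Lingo3 and TROY knockouts. The 2 parental libraries were the highest, and the knockouts did not overlap them. How many of all tested genes separate in this way was not counted. Against the scratched library Foxp2 was lower by factors of 1.72 (1.59 to 1.85), 1.75 (1.62 to 1.89), 1.96 (1.82 to 2.12) and 1.503 (1.40 to 1.61), all short of 2-fold.

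Against the unscratched library Foxp2 was 1.86-fold, 1.90-fold and 1.63-fold lower in the Lingo1, Lingo2 and TROY knockouts, short of the rule. In the Lingo3 KO it was 2.12-fold lower (1.96 to 2.29), and this ratio passed the rule. The Lingo1 and Lingo2 knockouts shared a level of Foxp2 within counting error (ratio 1.02, 0.935 to 1.11), and the TROY KO was 1.14-fold (1.05 to 1.24) above the Lingo1 KO. Foxp1, its close relative, moved little. It was at 222 and 206 CPM in the parental libraries and at 208, 198, 194 and 212 CPM in the Lingo1, Lingo2, Lingo3 and TROY knockouts. By the authors' deposited RPKM, Foxp2 was 33.2% and 33.1% of Foxp1 in the parental libraries and 19.1%, 19.7%, 18% and 21.4% in the knockouts, in the same order.

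Of the 27 other forkhead factors, 16 were tested. None passed the size rule in the Lingo1, Lingo2 and TROY comparisons, and 2 were higher in the Lingo3 KO, Foxf2 at 2.87-fold (2.15 to 3.87) and Foxd1 at 2.15-fold (1.77 to 2.63). Both are factors of lung mesenchyme and stroma. In the Lingo3 comparison 4.63% of all tested genes were higher. Foxp4, the third lung member of the Foxp group, was between 77.6 and 94.9 CPM in all 6 libraries. The median log2 fold of the forkhead list was 0.173, -0.000425, 0.258 and 0.184 in the Lingo1, Lingo2, Lingo3 and TROY comparisons.

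**Figure D2:**
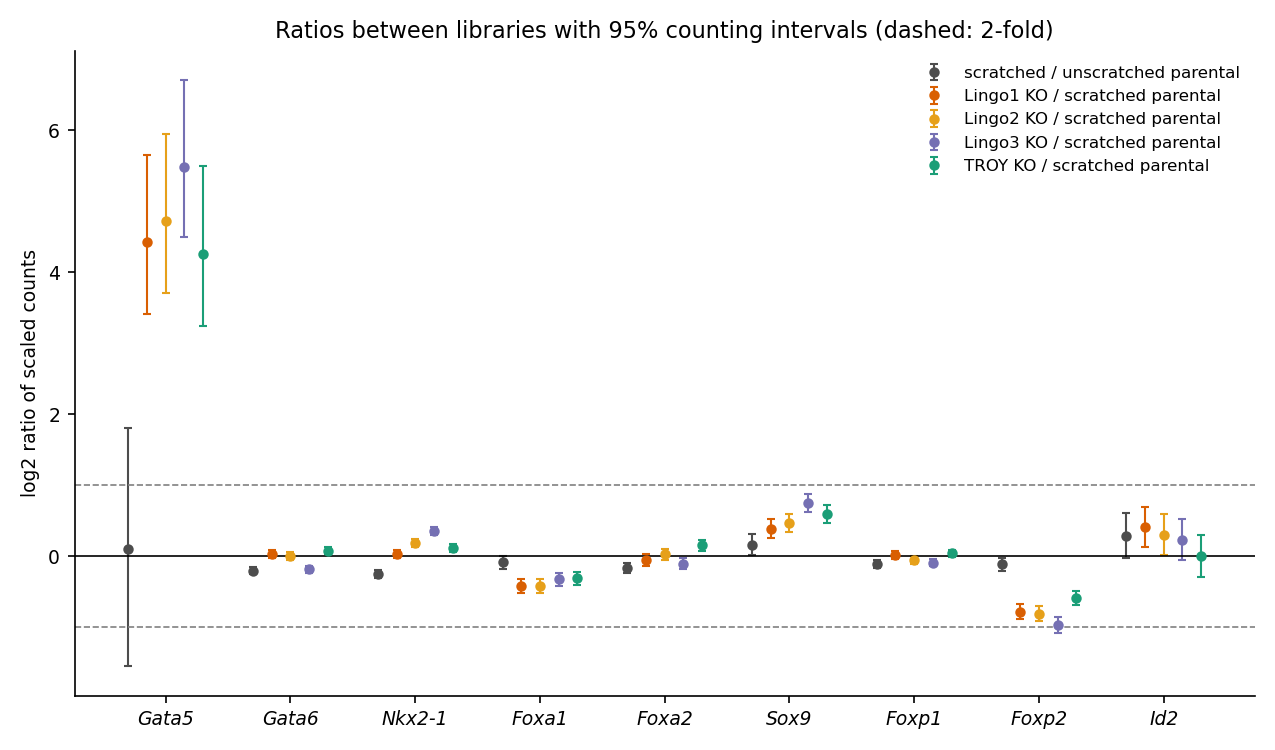
Log2 ratio of scaled counts (vertical axis) for the 9 detected factors (horizontal axis) in the scratch comparison and the 4 knockout comparisons; points are ratios of 2 single libraries, bars 95% counting intervals and dashed lines 2-fold. Gata5 stands between 4.26 and 5.48 in the knockouts, Foxp2 between -0.97 and -0.59, and Sox9 between 0.39 and 0.75; the points of the other 6 factors lie between -0.42 and 0.41.

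Sox9, the factor of distal lung tips, stood above the parental level in each knockout, short of the size rule. It was at 25.8 CPM in the unscratched and 29.0 in the scratched parental library, and at 37.9, 40.1, 48.7 and 43.8 CPM in the Lingo1, Lingo2, Lingo3 and TROY knockouts. No knockout overlapped the parental pair, a separation whose share over all tested genes was not counted. The folds were 1.31 (1.20 to 1.43), 1.38 (1.27 to 1.51), 1.68 (1.55 to 1.83) and 1.51 (1.39 to 1.65), in the same order. Against the unscratched library the ratios were 1.47, 1.55, 1.89 and 1.69. The order from lowest to highest was Lingo1, Lingo2, TROY and Lingo3, and the first 2 did not differ beyond counting error (ratio 1.06, 0.971 to 1.15). Sox9 was also 1.12-fold (1.02 to 1.24) higher in the scratched than in the unscratched parental library.

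Sox2 had 0 counts in all 6 libraries, with a 95% upper limit of 0.121 to 0.133 CPM per library. None of its exon bases is shared with another annotated gene. Of 17 other SOX factors, 4 were tested, and 1 passed the rule in the Lingo3 KO. That was Sox8, a relative of Sox9, with 36 counts in the scratched parental library against 94 in the Lingo3 KO (2.61-fold, 1.76 to 3.94). In the Lingo2 KO it had 72 counts, with a ratio of 2.15 (1.42 to 3.31), whose lower bound was short of the rule. The share of all tested genes that were higher in the Lingo3 comparison was 4.63%.

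Id2, an inhibitor of basic helix-loop-helix factors, was at 5.06 CPM in the unscratched and 6.18 in the scratched parental library, and at 8.23, 7.61, 7.25 and 6.18 CPM in the Lingo1, Lingo2, Lingo3 and TROY knockouts. The folds were 1.33 (1.09 to 1.62), 1.23 (1.01 to 1.51), 1.17 (0.961 to 1.43) in the Lingo1, Lingo2 and Lingo3 knockouts. The last of these intervals holds 1, as does that of the TROY KO (0.812 to 1.23), whose level equalled the scratched one. No 2 neighbours in the order of Id2 levels differed beyond counting error. Id1, a relative of Id2, was at 70.5 CPM in the unscratched and 61.2 CPM in the scratched parental library. Against the scratched library Id1 was 2.04-fold (1.92 to 2.16), 2.01-fold (1.90 to 2.13) and 2.08-fold (1.97 to 2.20) higher in the Lingo1, Lingo2 and Lingo3 knockouts. The unscratched level was the higher parental one, so ratios against it are smaller. In the TROY KO the Id1 ratio was 1.78 (1.68 to 1.89), short of the rule. Id1 was the 1 gene past the rule, against the scratched library, among the 5 tested ID and E proteins. Over all tested genes, 1.95%, 2.12% and 4.63% were higher in the Lingo1, Lingo2 and Lingo3 comparisons.

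Against all tested genes the factors were counted as follows. The scratch comparison called 0 of the 9 tested factors, while 0.0828% of all tested genes passed in either direction. In each knockout comparison 1 factor, Gata5, was higher and 0 were lower. The rule that chose Gata5 used these contrasts, so nothing is read from that count. The shares of all tested genes that were higher were 1.95%, 2.12%, 4.63% and 1.06% in the Lingo1, Lingo2, Lingo3 and TROY comparisons, and the shares lower were 1.67%, 1.38%, 2.56% and 1.18%.

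A lower rule, at least 1.5-fold with a correspondingly lower bound, called 0 factors after the scratch, where 0.323% of all tested genes passed. Beside Gata5 it called Foxp2 lower in all 4 knockouts, and Sox9 higher in the Lingo3 and TROY knockouts. By this rule 4.19%, 3.84%, 7.01% and 3.35% of all tested genes were lower in the Lingo1, Lingo2, Lingo3 and TROY comparisons, and 5.57%, 5.54%, 10.3% and 3.72% were higher. A single call among 9 factors is not set apart from these shares. The comparisons share 1 control library, so each gives its own value. The median log2 fold of the 9 tested factors was 0.0302, 0.0272, -0.0894 and 0.076 in the Lingo1, Lingo2, Lingo3 and TROY comparisons, beside 0.00996, 0.0217, 0.00706 and 0.0196 over all tested genes.

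Over the 6 libraries, the ratio of the highest to the lowest level was 48.2 for Gata5, 2.12 for Foxp2, 1.89 for Sox9, 1.63 for Id2 and 1.43 for Foxa1. It was 1.31 for Gata6, 1.28 for Nkx2-1, 1.21 for Foxa2 and 1.15 for Foxp1, and the median tested gene had 1.32. The 4 factors with the highest RPKM were thus all below that median, and Foxp1 had a smaller range than all but 10.4% of tested genes. Counting error widens this ratio in genes with few counts. No comparison matched for level was made, so no stability of these factors is read from it.

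**Figure D3:**
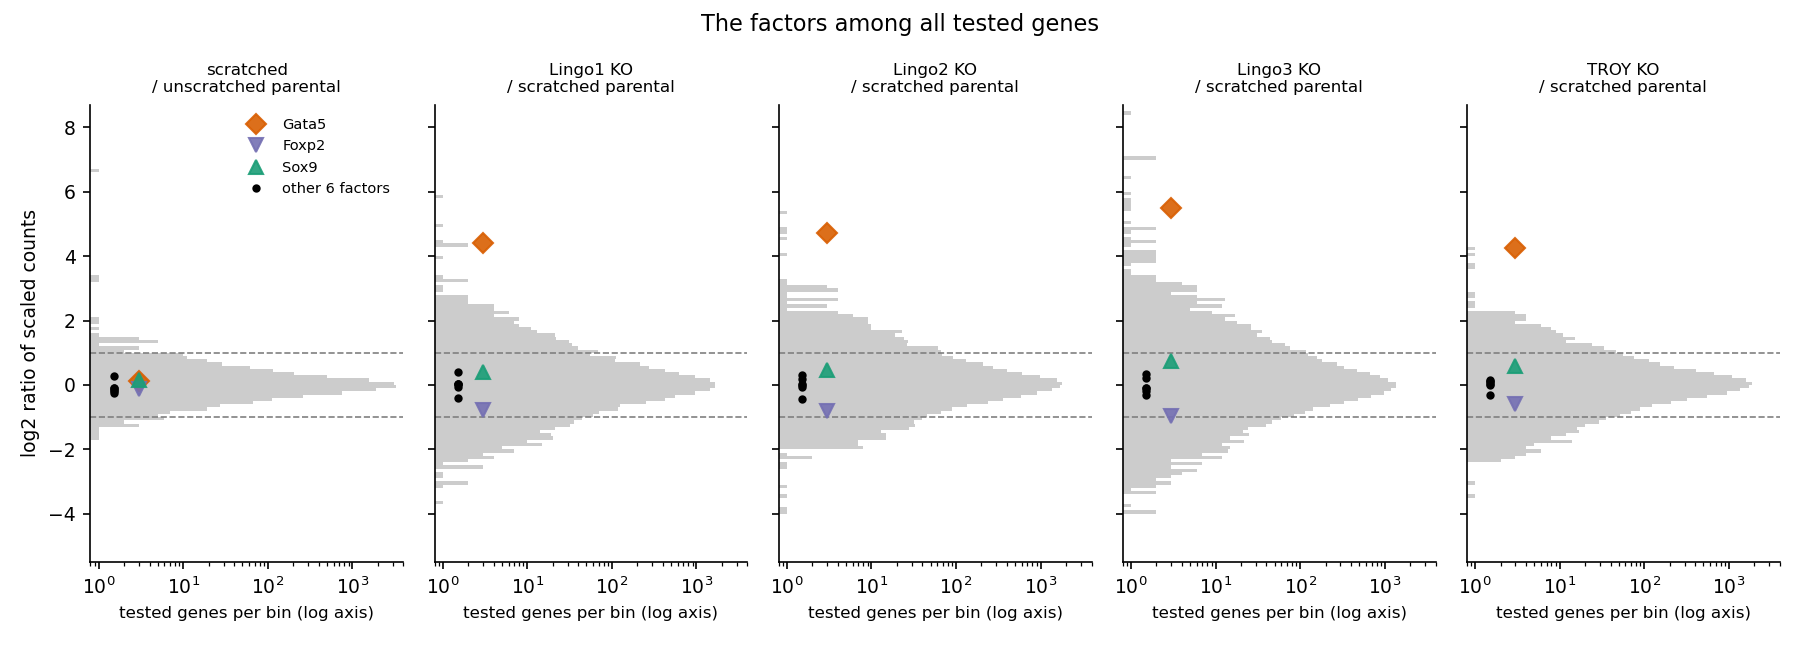
Distribution of the log2 ratio of scaled counts (vertical axis) over the 12078 tested genes in 5 comparisons of single libraries (grey bars, genes per bin of 0.1 on a log axis), with Gata5, Foxp2, Sox9 and the other 6 tested factors marked at arbitrary horizontal positions; dashed lines are 2-fold. Gata5 lies in the upper tail of each knockout comparison and near 0 after the scratch, and the other 8 factors lie inside the 2-fold lines.

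Of 28 listed genes that these factors are known to drive in lung epithelium, 16 were tested. Past the rule and higher were 2 in the Lingo1 KO, 2 in the Lingo2 KO, 5 in the Lingo3 KO and 1 in the TROY KO, and 0 were lower, where 1.95%, 2.12%, 4.63% and 1.06% of all tested genes were higher. Sftpb, surfactant protein B, was at 40.1 and 35.6 CPM in the parental libraries and at 163.8, 144.4, 164.1 and 87.0 CPM in the Lingo1, Lingo2, Lingo3 and TROY knockouts. This is 4.60-fold, 4.06-fold, 4.61-fold and 2.44-fold above the scratched library. Lpcat1, an enzyme of surfactant lipid synthesis named after its values were seen, went the other way without reaching the rule, from 238.1 and 239.5 CPM to 164.1, 159.7, 140.1 and 166.6 CPM.

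Sftpc, surfactant protein C, was 2.22-fold (2.01 to 2.46), 2.29-fold (2.07 to 2.54) and 4.48-fold (4.08 to 4.91) higher in the Lingo1, Lingo2 and Lingo3 knockouts, with a TROY ratio of 1.08 (0.964 to 1.22). Napsa, a protease that processes surfactant proteins, was 3.46-fold (2.65 to 4.59) higher in the Lingo3 KO, with ratios of 1.35, 1.57 and 0.925 in the Lingo1, Lingo2 and TROY comparisons. Lgr5, a receptor of the Wnt pathway, was 4.63-fold (3.21 to 6.83) higher in the Lingo3 KO. Nkx2-1, Foxa1, Foxa2 and Gata6, the factors best known to act on the surfactant genes, had ratios of no more than 1.34-fold in either direction in these comparisons. Nkx2-1 was highest in the library in which Sftpc and Napsa were highest. Its next highest level, 191 CPM, was in the unscratched parental library, where Sftpc was lowest at 16.5 CPM. Foxa1 lay below the parental level in each knockout in which Sftpb was higher. These relations were not tested. The list's median log2 fold was 0.248, 0.35, 0.48 and 0.177 in the Lingo1, Lingo2, Lingo3 and TROY comparisons.

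Other transcription factors of lung epithelium were also followed, 31 of 39 being tested. Higher were 2 in the Lingo1 KO, 2 in the Lingo2 KO, 4 in the Lingo3 KO and 2 in the TROY KO, and 0 were lower, beside the same shares of 1.95%, 2.12%, 4.63% and 1.06% over all tested genes. Trp63, the master factor of basal cells, had 32 and 26 counts in the unscratched and scratched parental libraries and 111, 98, 411 and 85 in the Lingo1, Lingo2, Lingo3 and TROY knockouts. It was 4.69-fold, 4.06-fold, 15.8-fold and 3.31-fold above the scratched library. Its parental levels, 1.12 CPM unscratched and 0.855 CPM scratched, were near the filter of 1 CPM. The Lingo3 KO was the highest library for Trp63, as it was for Gata5.

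Cebpa, a factor of type II cell maturation, was 2.65-fold (1.98 to 3.57), 2.58-fold (1.93 to 3.48) and 3.36-fold (2.55 to 4.47) higher in the Lingo1, Lingo2 and Lingo3 knockouts, and its TROY ratio was 1.84 (1.36 to 2.52). Elf3, an epithelial ETS factor, was 5.67-fold (3.46 to 9.78) higher in the Lingo3 KO. Hmga2, a chromatin protein of embryonic cells, was 3.30-fold (1.82 to 6.34) higher in the TROY KO, with ratios of 2.34, 2.66 and 1.86 in the Lingo1, Lingo2 and Lingo3 knockouts whose bounds were short of the rule. In the unscratched and scratched parental libraries Elf3 was at 0.698 and 0.625 CPM and Hmga2 at 0.558 and 0.493 CPM. Both genes thus passed the filter only through the knockout libraries, so nothing is read from their part in the counts of higher factors. The median log2 fold of these factors was 0.202, 0.151, 0.318 and 0.198 in the 4 comparisons.

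Gata5 is also a factor of gut, liver and heart, so factors of those tissues were counted. Of 17 gut, liver and pancreas factors, 3 were tested and 0 passed the rule in any comparison, and Hnf4a had at most 1 count in any library. Of 16 heart mesoderm factors, 5 were tested, and Nkx2-5, Isl1, Hand1, Mesp1 and Tbx20 were at 0 in all 6 libraries. Mef2c, a muscle and vessel factor, was 2.27-fold (1.86 to 2.77) higher in the Lingo3 KO. It was the 1 heart factor past the rule in the knockouts. Among all tested genes the share that were higher in the Lingo3 comparison was 4.63%.

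Of 32 genes of lung branching signals (Fgf, Bmp, Wnt, hedgehog and related pathways), 18 were tested. Wnt7b, an epithelial Wnt ligand, was higher in the Lingo3 KO at 2.44-fold (1.73 to 3.51), and its ratios in the Lingo1, Lingo2 and TROY knockouts were 1.85, 1.76 and 1.70. Smad9, a mediator of Bmp signals, was 2.02-fold (1.75 to 2.34) lower in the Lingo3 KO than in the scratched parental library. Its level was 14.1 CPM in the unscratched and 18.6 CPM in the scratched parental library, and 9.22 CPM in the Lingo3 KO. None of the 18 passed the rule in the other 3 knockout comparisons. In the Lingo3 comparison 4.63% of all tested genes were higher and 2.56% lower.

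Several marker sums of cell types also differed between the parental and knockout libraries, but not all of them in every knockout. Their part in the differences of Gata5, Sox9 and Foxp2 was not tested. In bulk samples, more cells of a type and more RNA per cell cannot be told apart. The summed level of 6 basal cell markers was between 44.8 and 51.2 CPM in the parental libraries and between 130.8 and 219 CPM in the knockouts, with 2 of 6 tested and both, Trp63 and Krt14, higher in every knockout. Most of the sum was Krt14, at 43.4 CPM in the scratched parental library and between 127.3 and 203.2 CPM in the knockouts. Krt5, a defining basal keratin, was at 0 counts in all 6 libraries. Over all tested genes, 1.95%, 2.12%, 4.63% and 1.06% were higher in the Lingo1, Lingo2, Lingo3 and TROY comparisons. The shares lower were 1.67%, 1.38%, 2.56% and 1.18%, in the same order. For 10 airway secretory and ciliated markers the sums were 46.0 to 49.6 CPM and 94.7 to 161.8 CPM, led by Muc5b, with Scgb3a2 and Cyp2f2 at 0 throughout and Scgb1a1 at no more than 2 counts. For 11 alveolar type II markers the sums were 236.4 to 250.9 CPM in the parental line and 312.7 to 477.4 CPM in the knockouts. Abca3 and Sftpb were the largest of them in the knockouts. Abca3 was already at 141.1 and 133.1 CPM in the unscratched and scratched parental libraries. Against the type II sum, Cxcl15, a chemokine of lung epithelium, was lower in all 4 knockouts. Its counts were 43 and 67 in the unscratched and scratched parental libraries. They were 15, 26, 18 and 13 in the Lingo1, Lingo2, Lingo3 and TROY knockouts. For 9 type I markers the sums were 3717 to 4076 CPM and 4782 to 5456 CPM, most of it Cav1. All 9 were tested, and 0 were higher past the rule in any knockout. Akap5 was 3.14-fold (1.73 to 6.05) lower in the Lingo3 KO. Hopx was at 186.3 and 166.2 CPM in the unscratched and scratched parental libraries. It was above both in the Lingo1 and Lingo2 knockouts, at 190 and 194.9 CPM, and below both in the Lingo3 and TROY knockouts, at 127.1 and 142.7 CPM.

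The 11 fibroblast and smooth muscle markers summed to 2582 to 2827 CPM in the parental line and 2747 to 3464 CPM in the knockouts, most of it Dcn, and Tcf21 was at 0. Within that list 5 were tested. Col1a1 was higher in all 4 knockouts, from 62.3 CPM in the unscratched and 44.8 CPM in the scratched parental library to between 135.7 and 397.7 CPM. Pdgfrb was also higher in all 4, with 3 and 1 counts in the parental libraries and 52, 37, 348 and 13 in the Lingo1, Lingo2, Lingo3 and TROY knockouts. It passed the filter only through the knockouts. Pdgfra passed the rule in the Lingo3 KO only, and Dcn and Tagln in no comparison. Col1a2 had at most 3 counts in any library and Lum at most 1. The 8 endothelial markers summed to 97.2 to 104.4 CPM and 162.8 to 189.4 CPM, most of it Tek, and Pecam1 was under 0.5 CPM in all libraries. Other members of that list were highest in the scratched parental library, the shared control. Vwf, a clotting factor of endothelium, had 16 counts in the unscratched and 169 in the scratched parental library (9.95-fold higher, 5.95 to 17.8), and 17, 11, 37 and 15 in the Lingo1, Lingo2, Lingo3 and TROY knockouts, past the rule and lower in each. Kdr had 74 counts in the scratched parental library and 12 to 21 in the others, Cdh5 had 20 against at most 1, and Cldn5 had 11 against at most 1. The part of this in the factors' folds was not tested, and the folds of Gata5, Sox9, Foxp2 and Foxa1 against the unscratched library are given with each gene. The 9 blood cell markers summed to under 3.5 CPM in every library, with Ptprc at no more than 3 counts. The 8 neural markers summed to 58.7 and 62.0 CPM in the parental libraries and to between 64.1 and 145.3 CPM in the knockouts, and Calca and Chga were at 0.

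The genes whose profile over the 6 libraries was most like that of Gata5 were ranked by the root mean square difference of log2(CPM + 0.5), each gene centred on its own mean. The closest was Plcb1, a phospholipase C, at 0.226, with 73 and 71 counts in the parental libraries and 635, 537, 1230 and 472 in the Lingo1, Lingo2, Lingo3 and TROY knockouts. Sprr2a3, of the small proline-rich proteins of the cornified envelope, followed at 0.245, and then came Cdh4, a cadherin, at 0.349. Gkn2, a gastrokine, was at 0.403 and Orm3, an acute phase glycoprotein, at 0.441. All 5 were lowest in the 2 parental libraries and highest in the Lingo3 KO or, for Orm3, in the Lingo2 KO. The ranking selects genes for this shape, and Gata5 was chosen for its rise, so nothing is read from the shared pattern. The likeness rests on 6 libraries, and only 1 of the 5 genes stayed in the list with a pseudocount of 2.

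Plcb1 and Cdh4 lie on chromosome 2, as Gata5 does. Plcb1, from 134786067 to 135475258, is far outside the window of 1000000 bases on either side of Gata5. Within 1000000 bases of Gata5, 39 protein-coding genes are annotated and 24 were tested. In each knockout comparison 1 of the 24 was higher, Cdh4, and 1 was lower, Col20a1. Over all tested genes, 1.95%, 2.12%, 4.63% and 1.06% were higher and 1.67%, 1.38%, 2.56% and 1.18% lower in the Lingo1, Lingo2, Lingo3 and TROY comparisons, so a single call among 24 is not set apart from these shares. Cdh4 passed the filter only through the knockout libraries. Cdh4 had 1 and 0 counts in the parental libraries and 85, 67, 184 and 49 in the Lingo1, Lingo2, Lingo3 and TROY knockouts. Against a floor of 3 counts in the scratched library the observed ratios were at least 31.1-fold, 24.0-fold, 61.2-fold and 16.5-fold. The lower 95% counting bounds lay below these floored ratios, at 24.8, 19.0, 49.3 and 12.9. Its nearest end is 425.76 kb from Gata5, and the tested genes that lie between the 2 did not pass the rule.

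Col20a1, a collagen gene whose nearest end is 651.8 kb away on the other side, was at 19.8 and 19.2 CPM in the parental libraries and at 6.86, 8.78, 4.82 and 7.41 CPM in the Lingo1, Lingo2, Lingo3 and TROY knockouts. The nearest annotated protein-coding genes on either side, Rbbp8nl and Slco4a1, were below the filter, at no more than 0.181 and 0.0329 CPM. The median log2 fold of the 24 neighbours was 0.159, 0.156, 0.331 and 0.127 in the 4 knockout comparisons, above the medians over all tested genes given before, and -0.042 after the scratch.

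**Figure D4:**
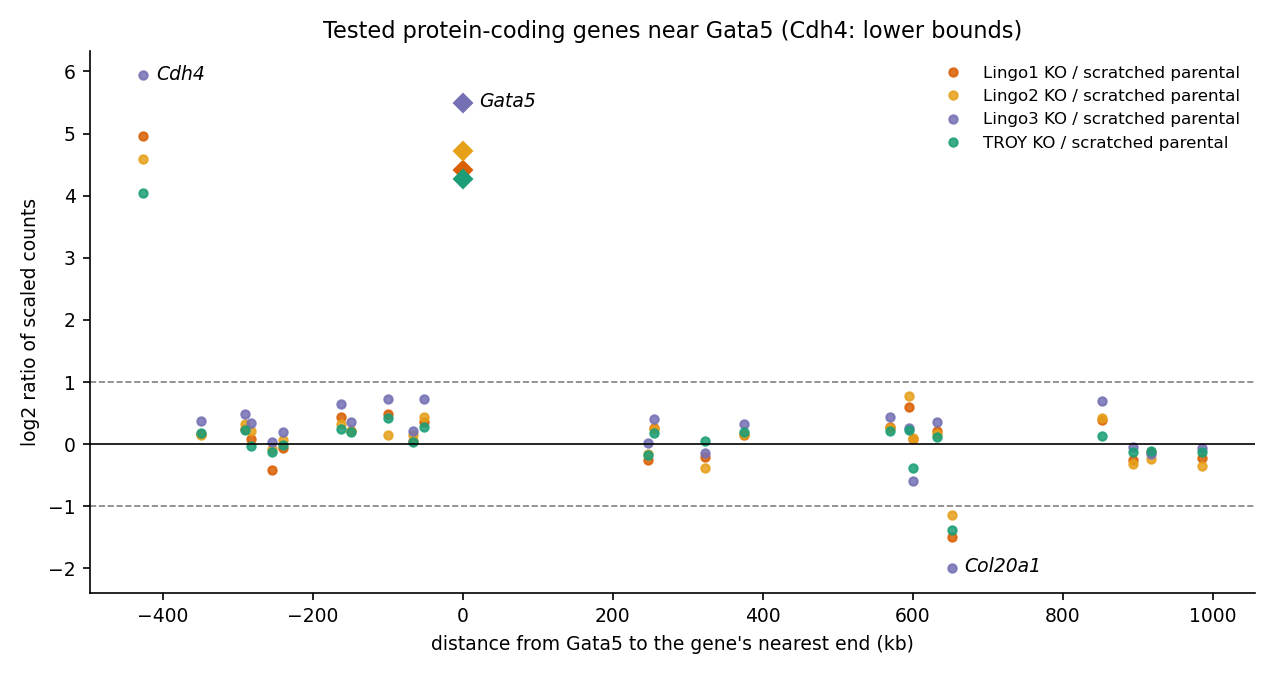
Log2 ratio of scaled counts against the scratched parental library (vertical axis) for the 24 tested protein-coding genes within 1000 kb of Gata5, by the distance from Gata5 to the gene's nearest end in kb (horizontal axis, higher coordinates to the right); colours are the 4 knockouts, diamonds Gata5, dashed lines 2-fold, and the Cdh4 points are lower bounds. Cdh4 and Gata5 lie above 4 in each knockout, Col20a1 lies below -1, and the other 22 genes stay within the dashed lines.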

How the data were processed

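MLE12 RNA was sequenced in 6 libraries, 1 per group, from a messenger RNA preparation, per the labels' protocols. Per the submitters' processing notes, Trimmomatic 0.39, STAR, HTSeq and edgeR were used on GRCm38. The sources used here give neither the settings nor any other version. Raw read counts per Ensembl gene were deposited by the authors. The authors' deposited table of 13559 genes also holds RPKM values, a unit taken from its headings and values, and log2 ratios of them for the same 5 comparisons.

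Of 46078 count identifiers, 45143 matched GENCODE M21. The HTSeq summary lines stayed out of library sizes. Counts were scaled by TMM (edgeR 4.0.16, R 4.3.3), and each ratio's 95% interval is Clopper-Pearson, on the first library's part of both counts (SciPy 1.17.1), and each level's is Poisson. Without molecular identifiers, reads may be copies of 1 molecule, so both cover counting error only. A library at 0 was set to a floor of 3 counts. Alternatives were total counts, DESeq2 1.42.0 size factors, other filters and rules, the authors' deposited log2 ratios, and the unscratched control.

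Genes named beside the 10 factors were up to 4 past the rule from each of the gene lists, the 5 most like Gata5, its neighbours and the 4 targets; others are named as defining markers or family members. Factors and lists were chosen with earlier results of these data known.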

Additional observations from a re-analysis of the deposited data

Results flagged for a closer look

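Gata6 and Foxa2 were above the scratched parental library in the TROY KO and below it in the Lingo3 KO. For Gata6 the ratio of the TROY KO to the Lingo3 KO library was 1.198 (95% counting interval 1.155 to 1.243), from folds of 1.054 and 0.8798. For Foxa2 this ratio was also 1.198 (1.137 to 1.263), from folds of 1.111 and 0.927. With 1 library each, the difference between these knockouts was not tested against variation between cultures. The opposite signs depend on the control: against the unscratched parental library both genes were below it in the TROY KO too, at log2 values of -0.127 for Gata6 and -0.017 for Foxa2, and with total counts as scaling Gata6 in the TROY KO was at -0.002.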

How the results depend on the processing

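The counts of genes past the 2-fold rule were 10, 437, 423, 868 and 270 in the scratch, Lingo1, Lingo2, Lingo3 and TROY comparisons. In the same order they were 160, 783, 755, 1487 and 562 without a filter on low counts, 2, 207, 185, 461 and 118 when genes had to average 5 CPM, 39, 1179, 1133, 2096 and 854 at 1.5-fold, 4, 143, 126, 364 and 76 at 3-fold, and 134, 835, 828, 1382 and 623 by the authors' deposited log2 ratios without an interval. The number of factors past the rule, 0 after the scratch and 1 in each knockout, became 0 in every knockout under that stricter filter, which removes Gata5. At 1.5-fold it became 2, 2, 3 and 3 in the Lingo1, Lingo2, Lingo3 and TROY comparisons. In the Lingo3 KO it was 2 with total counts and 2 against the unscratched library, where Foxp2 (log2 -1.084 in the latter) joined Gata5. Of 171 log2 values of factors under another scaling, control or the authors' ratios, 132 stayed inside the counting interval and 39 moved out of it, 13 with total counts and 26 with the unscratched control. No value past the rule changed sign. Among smaller values 8 did so with total counts, 10 with the unscratched control and 2 each with DESeq2 size factors and the authors' ratios, all of Gata6, Nkx2-1, Foxa2, Foxp1 or Id2 in knockouts. With total counts 45.4%, 50.9%, 56.8% and 38.1% of called genes were higher in the Lingo1, Lingo2, Lingo3 and TROY comparisons, against 53.8%, 60.5%, 64.4% and 47.4%; in the scratch comparison it was 90%, against 80%. Of the 5 genes most like Gata5, 1 stayed with a pseudocount of 2 and 0 by Pearson's r. No paired analysis was possible because each group had 1 library, and for the same reason no replicate could be left out. Depth limits Gata5 most, through 8 counts in the shared control.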
